A study of Drosophila melanogaster with 4 samples.

Results

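Spermathecal serine protease genes of Drosophila melanogaster were followed in whole females before and after mating. The 4 genes, Send1, Send2, CG9897 and CG32277, were chosen by name, and each was found through the updated symbol of its probe set in the platform annotation. They are 4 of 10843 genes that had a probe set with 1 gene symbol, and each was read by 1 probe set. Females came from an inbred wild-type Canton S stock, were 3 to 4 days old and were reared at 25 °C under 12 h of light and 12 h of dark. There were 4 groups with 1 column of deposited values each, so nothing could be tested against replicate spread, and every difference below is between 2 columns. Virgin females were unmated. Another group of females was mated to DTA-E males, which carry a transgene in a Canton S background, make no sperm and lack the accessory gland proteins (Acps) of the main cells, 96% of the secretory cells of that gland; the cells outside that share were not stated to be affected. Another group was mated to spermless males, sons of Canton S males and bw sp tud1 females, which pass Acps without sperm. The sample title calls them sons of tudor males. The last group was mated to wild-type Canton S males, which pass both. Mated females were frozen 1 to 3 h after mating; no time of freezing is given for the virgins. Flies were taken in batches of 50, and each treatment rested on 2 RNA extractions and 4 Affymetrix chips.

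Spermathecae are the long-term sperm stores of the female fly, lined by secretory cells whose products are needed for sperm storage and egg laying. Send1 and Send2 take their names from spermathecal endopeptidase and are known as genes of those secretory cells. Serine proteases cut proteins with a serine in the active site, and serine protease homologues keep the fold without full catalytic residues. Among the older names in the RefSeq gene table, Send1 and CG32277 carry a serine protease name (SP), CG9897 carries a homologue name (SPH), and Send2 carries both kinds.

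No source gives the base of the log scale of the values. Read as log2, as here, a step of 1 means 2-fold, and read as natural log it means 2.72-fold. Values ran from -1.98 to 5.67 with column medians of -0.19 to -0.17, and columns correlated with each other at 0.993 to 0.996 across probe sets. The 23 foreign control probe sets, which match no fly transcript and stand in for background, ran from -1.58 to -0.69 over the 4 columns. Yolk protein genes Yp1, Yp2 and Yp3 lay between 4.70 and 5.67 in all columns, near the top of the scale, as RNA of adult females would place them. The muscle genes Act88F and Mlc2 varied between columns, from 0.08 with wild-type mates to 3.01 with spermless mates for Act88F and from 3.17 to 4.55 for Mlc2 in the same columns. Of 6 genes of the male accessory gland and testis, 5 lay between -1.56 and -0.37, but Mst84Dc, a testis gene, stood at 0.70 to 0.79 in every column including the virgins. A level near 0 is therefore no proof that a female transcript was detected, and no detection calls were used here. In whole flies, fewer spermathecal cells and less RNA per cell cannot be told apart.

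Send2 was low in virgins and higher in all 3 mated columns. Its deposited value was -0.88 in virgin females, 0.10 with DTA-E mates, 0.09 with spermless mates and 0.33 with wild-type mates. The virgin value lay inside the range of the foreign controls, with 2 of the 23 above it, whereas in each mated column Send2 lay above all 23. Its percentile among all probe sets of a column was 19.5 in virgins, 61.4 with DTA-E mates, 62.0 with spermless mates and 69.7 with wild-type mates. Since the virgin value is not above background, a fold against it is not well defined. The centred mated level of Send2 was therefore also set over the highest foreign control of the virgin column (-0.75). It was 1.80-fold that control with DTA-E mates, 1.85-fold with spermless mates and 2.15-fold with wild-type mates. These folds set different probe sets against each other and rest on 1 column per group, so they are not lower limits. The measured log2 differences from the virgin value itself were 0.98, 1.02 and 1.23 in the same order, at ranks 4, 8 and 2 from the top of 6201 genes. These ranks rest on a virgin value at background, and the 3 comparisons share it. Send2 was also kept among the 6201 genes only through its mated columns.

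Send1 had the same order of virgin and mated columns with a smaller gap. Its deposited value was -0.37 in virgin females, 0.12 with DTA-E mates, 0.12 with spermless mates and 0.14 with wild-type mates. The mated columns lay within 0.023 of each other and all stood above the virgin column. Unlike Send2, Send1 was above all 23 foreign controls in the virgin column, by 0.38 over the highest of them. The centred log2 differences against virgins were 0.49 with DTA-E mates (1.40-fold, rank 17 of 6201), 0.54 with spermless mates (1.46-fold, rank 36) and 0.54 with wild-type mates (1.45-fold, rank 17). None of these reached 1.5-fold on the log2 reading. On the natural log reading they would be 1.63-fold, 1.72-fold and 1.71-fold. Send1 was kept among the 6201 genes only through its mated columns, so its ranks are no support for a difference.

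**Figure D1:**
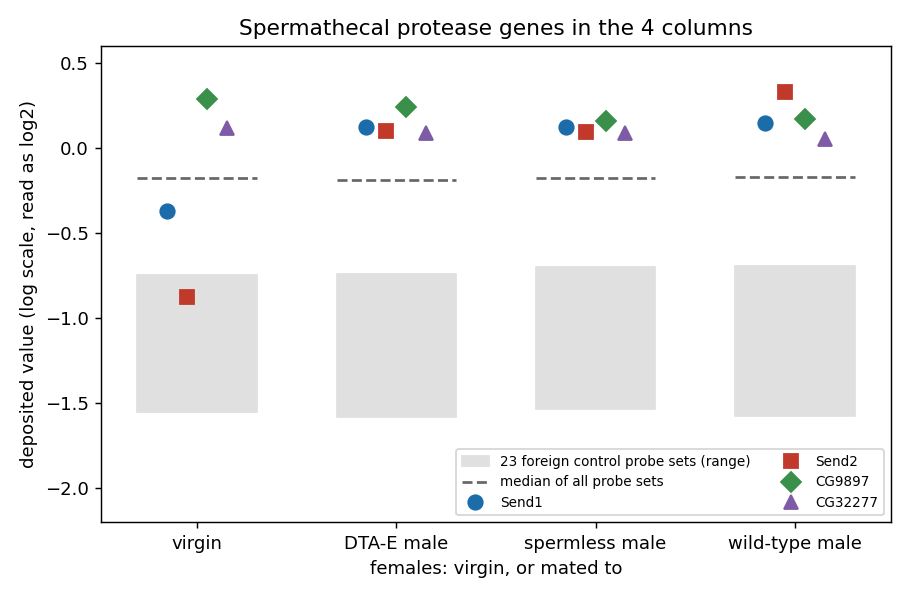
Deposited value (log scale, read as log2) of the 4 genes in each of the 4 columns, with 1 point per gene and column and points set side by side. Grey bands give the range of the 23 foreign control probe sets and dashed lines the column median; Send2 lies inside the band at -0.88 in virgins and at 0.09 to 0.33 in the mated columns, while CG9897 and CG32277 stay above the median in all 4 columns.

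CG9897, the gene with the homologue name, had its highest value in virgins. It stood at 0.29 in virgin females, 0.24 with DTA-E mates, 0.16 with spermless mates and 0.17 with wild-type mates, a range of 0.13. The centred log2 differences against virgins were -0.05 with DTA-E mates, -0.08 with spermless mates and -0.09 with wild-type mates. For genes with several probe sets, 294 in all, the SD of such a difference between probe sets of 1 gene was 0.08 to 0.09, and the differences of CG9897 came to at most 0.999 times it. Without the filter, which shifts the centring, they were -0.12 with spermless mates and -0.12 with wild-type mates, above that SD. The SD covers disagreement between probe sets and not variation between batches of flies.

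CG32277 varied least. Its deposited value was 0.11 in virgin females, 0.09 with DTA-E mates, 0.09 with spermless mates and 0.05 with wild-type mates, a range of 0.063. The centred log2 differences against virgins were -0.03 with DTA-E mates, 0.02 with spermless mates and -0.04 with wild-type mates, all smaller than the SD between probe sets. In the RefSeq gene table CG32277 shares an older annotation number, CG11531, with its neighbour CG33160, which has no probe set of its own here. Whether the probe set reads CG32277 alone was not tested.

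Counted at 1.5-fold on the log2 reading, 1 of the 4 genes, Send2, was higher than in virgins with DTA-E mates, where 0.194% of the 6201 genes were, with spermless mates, where 0.5% were, and with wild-type mates, where 0.177% were. None of the 4 was lower by 1.5-fold, against 0.387%, 0.29% and 1% of all genes in the same order. The count depends on the log base: on the natural log reading Send1 passes too, 2 of the 4 genes in each mated column, beside 0.403%, 1.10% and 0.468% of all genes. At 2-fold on the log2 reading, Send2 was among the 0.0484% of genes that were higher with wild-type mates. Genes were kept when the highest of their 4 columns reached -0.18, the median of all values. Send1 and Send2 passed through their mated columns and lay below that value in virgins, so their presence among the kept genes required a difference, whereas CG9897 and CG32277 passed in all 4 columns. The median log2 difference of the 4 genes against virgins was 0.23 with DTA-E mates, 0.28 with spermless mates and 0.25 with wild-type mates, beside 0.01, 0.00 and 0.01 over all genes, and it falls between the values of Send1 and Send2 and those of CG9897 and CG32277.

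**Figure D2:**
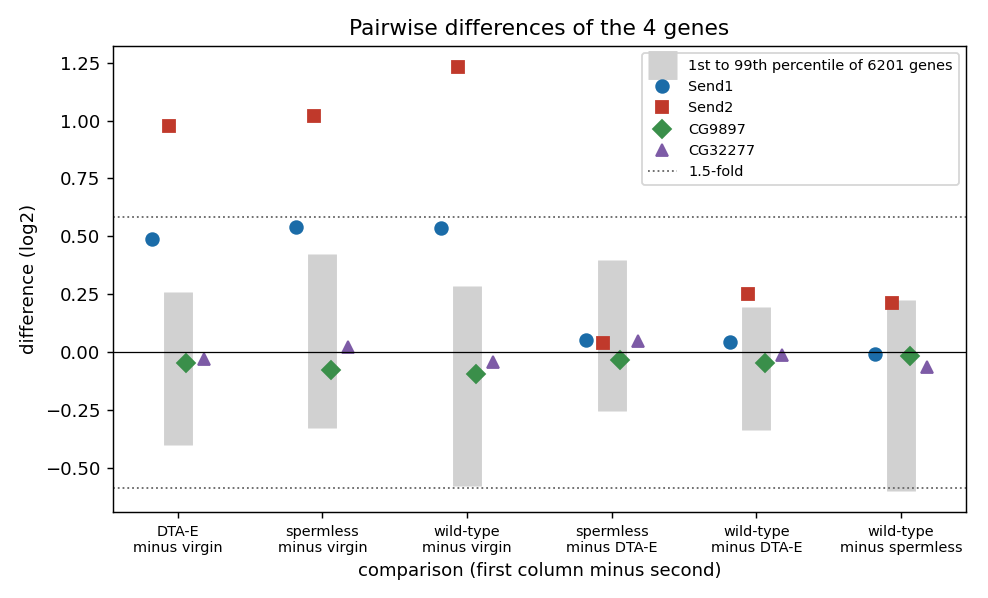
Log2 difference of each of the 4 genes in the 6 pairwise comparisons (first column minus second), with 1 point per gene. Grey bars span the 1st to 99th percentile of the 6201 kept genes and dotted lines mark 1.5-fold; Send1 and Send2 lie above the bars in the 3 comparisons with virgins, and on this log2 reading Send2 alone passes 1.5-fold there.

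Among the mated columns the question was whether sperm or Acps went with a further difference. The kinds of male also differ in genotype, so sperm or Acps cannot be told apart from male strain in these contrasts. After centring, the differences of Send1, CG9897 and CG32277 between any 2 mated columns lay between -0.062 and 0.052 (log2), all smaller than the SD between probe sets. Spermless minus DTA-E was -0.079 for CG9897 in the columns as deposited and -0.090 without the filter. For Send2, spermless minus DTA-E, the contrast that adds Acps, was 0.04 after centring but -0.0071 in the columns as deposited and -0.018 without the filter, so it has no settled sign, and all 3 values are under the SD of 0.09 between probe sets. Send2 was higher with wild-type mates than with spermless mates by 0.21 (1.16-fold, rank 77 of 6201), the contrast that adds sperm, and than with DTA-E mates by 0.25 (1.19-fold, rank 35). Those 2 differences were 2.36 and 2.73 times the SD between probe sets. The 9 hybridization control probe sets, spiked into every cocktail, moved the same way in both, by 0.07 against spermless and 0.23 against DTA-E, and Act88F was far lower with wild-type than with spermless mates. The part of either in the result was not tested. No member reached 1.5-fold in these comparisons. Over all genes 0.516% were that much higher and 0.0645% lower after spermless than with DTA-E mates. After wild-type males 0.129% were higher and 0.387% lower than with DTA-E mates, and 0.0968% were higher and 1.08% lower than with spermless mates.

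The same control probe sets differed from the virgin column by -0.08 with DTA-E mates, 0.09 with spermless mates and 0.16 with wild-type mates. RNA integrity was read from the actin control as its 3' value minus its 5' value, which was 1.95 in virgins, 2.26 with DTA-E mates, 2.02 with spermless mates and 1.97 with wild-type mates. The part of either in the differences of Send1 and Send2 was not tested.

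In the RefSeq gene table, Send1 lies at the end of a run of serine protease genes, next to CG17234, CG17239 and Ser12. Ser12 was the only one of these with a probe set here, and it stood at -1.13 in virgins, -1.20 with DTA-E mates, -1.11 with spermless mates and -1.02 with wild-type mates, inside the range of the foreign controls in every column. Send2 has no serine protease gene among the 4 genes on either side. Its nearest neighbours were CG15286 on one side and mTTF, a mitochondrial transcription termination factor gene, on the other. Their log2 differences from virgins lay between -0.05 and 0.07 over the 3 mated columns, without the filter, so neither neighbour differed from virgins as Send2 did. CG9897 lies near the homologue gene CG32833, which was at -1.92 to -1.82 in all columns, with an antisense RNA gene between CG9897 and twi. CG32277 lies in a run of protease genes of which CG32271 had a probe set, at -0.56 in virgins and -0.46 with wild-type mates.

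Other serine protease genes were taken by symbol or by an SP or SPH synonym, 255 in the gene table, of which 184 had a probe set and 85 passed the filter. They are mostly digestive enzymes of the gut and proteases of immune and developmental cascades. In wild-type against virgin, 39 of the 85 were higher and 46 lower with a median of -0.04; 1 was at least 1.5-fold higher and 8 were at least 1.5-fold lower. With the 4 spermathecal genes added, Send2 ranked 1 and Send1 ranked 3 from the top of 89. Jon99Fi, a Jonah protease gene of the gut, ranked between them, with a centred level of 1.63 in virgins and 2.26 with wild-type mates. Send1 and Send2 are among the 89 only through their mated columns. Their ranks against virgins, here and after the other kinds of male, are therefore description and no support for a difference. The lower end held CG7542 (1.45 in virgins and 0.12 with wild-type mates), Jon74E, betaTry and alphaTry, with log2 differences of -1.33, -1.29, -1.23 and -1.23.

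After DTA-E males the other proteases had 3 members at least 1.5-fold higher, Jon25Bii (1.13), Jon25Bi (0.82) and Jon99Fi (0.81), and 1 lower, CG7542 (-1.01). Send2 ranked 2 and Send1 ranked 5 of the 89 there, with ndl, which encodes the ovarian protease Nudel of eggshell and dorsoventral patterning, sharing the range of Send1 at 0.47. ndl was at -0.60 in virgins and -0.12 with DTA-E mates, and it passed the filter through that column alone. After spermless males Send2 ranked 1 and Send1 ranked 5. Between mated columns Send2 ranked 1 of 89 for wild-type mates over either other kind of mate, where 6 of the 85 others were at least 1.5-fold lower in each and 0 were that much higher. Jon25Bii differed in this respect, being 0.77 lower after wild-type than with DTA-E mates.

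**Figure D3:**
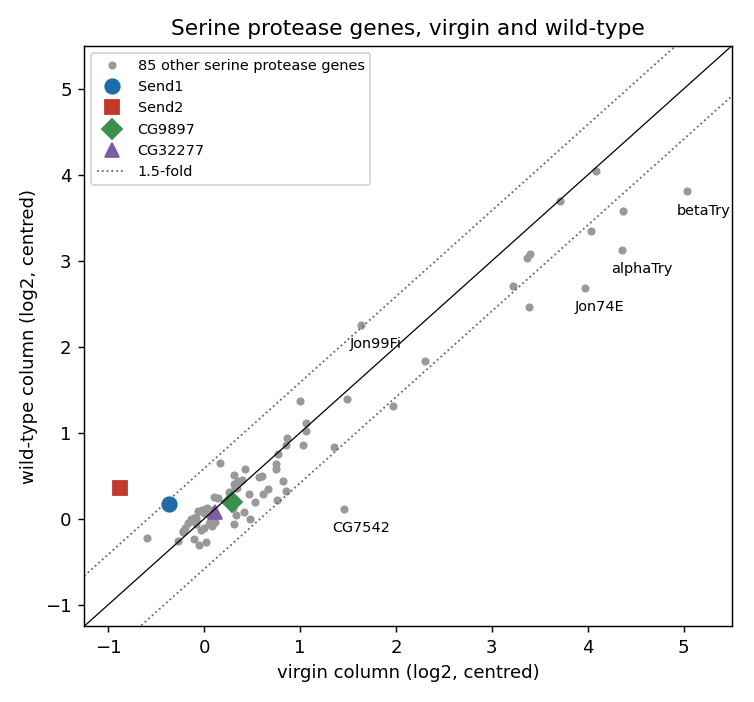
Centred level (log2) of 85 other serine protease genes, grey, and the 4 spermathecal genes in the virgin column (horizontal) and the wild-type column (vertical), with 1 point per gene. The solid line is equality and dotted lines mark 1.5-fold; Send2 lies farthest above the line at a difference of 1.23, and the lowest differences belong to CG7542, Jon74E, betaTry and alphaTry.

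CG32834, another protease gene of the list looked at by name, was 0.47 in virgins, 0.22 with DTA-E mates, 0.29 with spermless mates and 0.27 with wild-type mates. It was thus highest in virgins, as CG9897 was, by 0.17 to 0.23 without the filter. CG3097, of the same list, was at -0.63 to -0.48 and did not pass the filter, and CG31681 had no probe set here.

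Of 10 genes that act in the female reproductive tract, 8 had a probe set and only Ance, a peptidase gene related to angiotensin-converting enzyme, passed the filter, so these values are given without it. The receptor gene SPR, which binds the male sex peptide, the nuclear receptor gene Hr39 and the Runt factor gene lz, both needed to form spermathecal secretory cells, and Gld, a glucose dehydrogenase gene of the spermatheca, differed from virgins by -0.15 to 0.10 in the mated columns. Tbh, an octopamine synthesis gene, and ppk, a sodium channel gene of sensory neurons, differed by 0.01 to 0.08. In every column lz, Tbh and the lower SPR probe set lay inside the range of the foreign controls. Their small differences therefore do not show that these transcripts were unchanged. dsx, the sex determination factor, was -0.91 in virgins, -0.48 with DTA-E mates, -0.50 with spermless mates and -0.43 with wild-type mates. Its virgin value lay inside the range of the foreign controls, and it was higher by 0.44, 0.41 and 0.47 in the 3 mated columns in that order. Ance went the other way, from 0.50 in virgins to 0.21 with DTA-E mates, 0.29 with spermless mates and 0.01 with wild-type mates. On the log2 reading no gene of this list reached 1.5-fold; on the natural log reading dsx would in all 3 mated columns and Ance, lower, with wild-type mates.

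**Figure D4:**
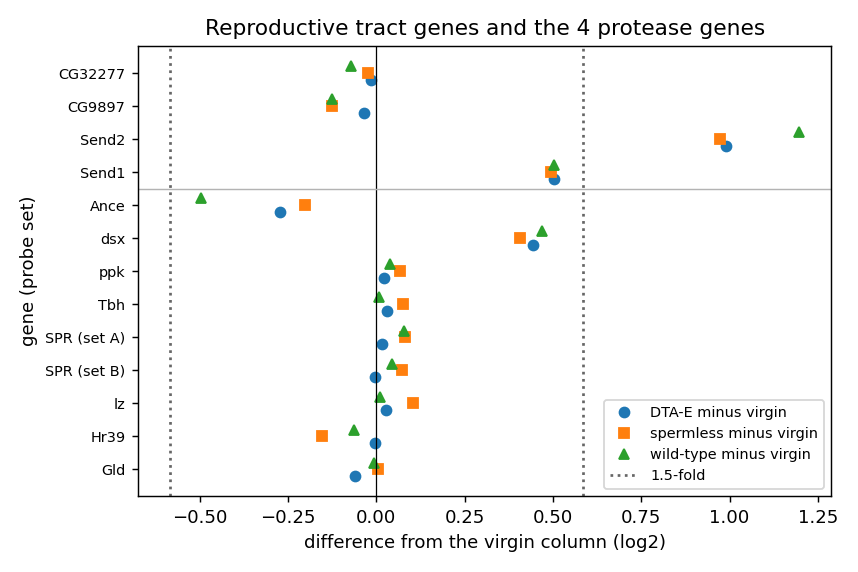
Log2 difference of each mated column from the virgin column, without the filter, for the probe sets of 8 reproductive tract genes (below the grey line; SPR has 2 probe sets) and the 4 spermathecal genes (above it). Each gene has 1 point per mated column and dotted lines mark 1.5-fold. dsx lies at 0.41 to 0.47, between the genes near 0 and Send1, and Ance is lower in all 3. Of those near 0, lz, Tbh and the lower SPR probe set have levels inside the range of the foreign controls.

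Likeness of pattern was measured as the distance between the 3 log2 differences from virgins over the 6200 other kept genes. The genes nearest to Send1 were CG3036 (distance 0.088), CG16743 (0.13), CG11741 (0.13) and Miox (0.19), which encodes myo-inositol oxygenase. CG3036 was at 0.73 in virgins, 1.17 with DTA-E mates, 1.34 with spermless mates and 1.25 with wild-type mates, a higher level with differences close to those of Send1. Send2 had no close neighbour by this distance, which depends on the size of its differences and so on a virgin value at background. The nearest was Cipc, named for the mammalian CLOCK-interacting pacemaker protein, at a distance of 0.45, followed by CG3348 (0.67), the chorion gene Cp15 (0.68) and Jon99Fi (0.74). Cipc was at -0.98 in virgins, -0.33 with DTA-E mates, -0.02 with spermless mates and -0.05 with wild-type mates. Its virgin value lay inside the range of the foreign controls, with 3 of the 23 above it. A further probe set of Cipc, below the filter, differed from virgins by 0.06, 0.18 and 0.12 in the 3 mated columns, against 0.66, 0.92 and 0.90 for the kept one, all without the filter, so the 2 probe sets disagree in size.

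Send1 was the gene ranked 14 in nearness to Send2, and Send2 ranked 4509 in nearness to Send1, because Send2 differed by more. CG9897 and CG32277 were 0.11 apart. Within a distance of 0.1, CG9897 had 1047 genes and CG32277 had 1615, so their patterns are shared by a large part of the kept genes, and the nearest (RfC38, CG7332, SREBP and vir for CG9897; CG9497, klar, Arms and Fitm for CG32277) are named only to complete the measure.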

How the data were processed

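The deposited table holds 1 column per treatment; the authors' values are on a log scale read as log2, with a mean near 0 in each column. How 4 chips became 1 column, the software and the log base are not given in the sources used here. Of 14009 probe sets, 44 were controls, 12443 had 1 symbol, 326 several and 1196 none; those with 1 symbol were used, with symbols brought up to date through Entrez numbers in RefSeq's gene list (12393 found, 50 not). A probe set stayed if any column reached the overall median (-0.18). Columns were then shifted to a common median of the retained probe sets (by at most 0.05), and the mean was taken per gene, leaving 6201 genes. The procedure was tested on simulated data, with differences set only in genes above 0 in every column. That test does not cover genes that are low in virgins, such as Send1 and Send2. The gene table has no descriptions, so proteases were taken by symbol and by SP or SPH synonym, without Sp1, skd, tyn and CR15280. The members and lists were chosen with earlier results of these data known. The text may name the members, their 4 nearest genes, the 4 highest and 4 lowest other proteases against virgins after wild-type and DTA-E males, the listed genes and 2 serpins; genomic neighbours were named after seeing the gene table. Alternatives were quantile normalization, deposited columns without centring, filters at the 75th percentile or none, the brightest probe set, a lowess correction for intensity (fraction 0.3, 3 iterations), other thresholds and, added after seeing the data, a filter on the mean of the 4 columns. Python 3.11.15, numpy 2.4.6, pandas 2.3.3, statsmodels 0.14.6 and matplotlib 3.10.9 were used.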

Additional observations from a re-analysis of the deposited data

How the results depend on the processing

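Across 6 alternatives, all 144 differences of the 4 genes moved by less than the SD between probe sets. Much of this was set in advance. Each gene has 1 probe set, so taking the brightest could not move it. Deposited columns and other filters only change the constant by which a whole column is shifted. Quantile normalization and the lowess correction are the settings that could move the 4 genes in other ways. Over them Send2 ranged from 0.95 to 0.99 with DTA-E mates, 0.95 to 1.03 with spermless mates and 1.19 to 1.23 with wild-type mates, against virgins, and Send1 from 0.48 to 0.50, 0.49 to 0.55 and 0.50 to 0.54. Under the 75th percentile filter 0 of the 4 genes remained and gave no value. At 1.2-fold, 2 of the 4 genes were higher than virgins in each mated column, and at 2-fold 0 were with DTA-E mates. With the scale read as natural log, a count added after seeing the data, 2 of the 4 were at least 1.5-fold higher than virgins in each mated column. Under the 75th percentile filter the median of the other proteases moved to -0.13 in DTA-E against virgin, -0.29 in wild-type against virgin, -0.17 in wild-type against DTA-E and -0.30 in wild-type against spermless; fewer and brighter genes enter there. Other proteases at least 1.5-fold higher with spermless mates than in virgins were 2, or 0 without the filter, and in spermless against DTA-E 0 were that much lower, or 1 without it. By Pearson correlation over the 4 columns, among genes with a range of at least 0.4, the gene nearest to Send1 was Send2 (0.985) and the nearest to Send2 was CG11741 (0.991). By distance, with the 75th percentile filter put on the other genes only, the nearest were CG3036 for Send1 (0.11) and Cp15 for Send2 (0.65). The members kept their values from the main filter there, since none of them passes the stricter one. No paired analysis was possible because each group has 1 column. The number of arrays limits the precision.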

Other observations

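Serpins, which trap and block serine proteases, were measured beside the proteases. Of 27 serpin genes in the gene table, 25 had a probe set and 10 passed the filter, and 0 of the 10 differed by 1.5-fold in any of the 6 comparisons. In wild-type against virgin 6 were higher and 4 lower, with a median of 0.05. Without the filter, Spn88Eb stood at 0.19 above virgins with wild-type mates and Spn43Ab at -0.24. After spermless males 9 of the 10 were higher than in virgins, with a median of 0.11. Over all genes 3151 of 6201 were higher, with a median of 0.00. The foreign controls, which match no fly transcript, were also higher with spermless mates than in virgins, by 0.07 on average as deposited. The serpin median of 0.11 is after centring, which raised the spermless column by 0.05 against virgins. On the scale of the serpin values the rise of the controls is therefore larger than 0.07. The part of such a background shift in the serpin values was not tested.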
